A study of Mus musculus with 9 samples.

Results

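The simple epithelial keratins are described here in mouse embryonic stem (ES) cells: Krt8, Krt7 and Krt80, which encode type II keratins, and Krt18, Krt19 and Krt20, which encode type I keratins. The 6 genes were chosen by name and are 6 of the 24421 genes in the count table. RNA was sequenced from D3 cells, an ES cell line kept off feeder cells on gelatin, in serum medium with leukemia inhibitory factor. There were 3 groups of 3 libraries. VT cells stably carried the pCDH control vector, and LAMP2A cells overexpressed LAMP2A. LAMP2A+DM-αKG cells were, by label, LAMP2A cells treated with DM-αKG at 4 mM over 72 h. The LAMP2A protein is the form of the lysosomal protein LAMP2 that serves as receptor in chaperone-mediated autophagy, and DM-αKG is dimethyl α-ketoglutarate, a cell-permeable ester of a metabolite that dioxygenases need. Both LAMP2A groups are labelled as overexpressing LAMP2A, and no library had DM-αKG with the control vector. The labels do not say whether a line was 1 clone or whether the 3 libraries of a group were separate cultures, so p-values measure the spread between these libraries, which may be technical.

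Keratins build intermediate filaments, the stress-bearing cables of epithelial cells. A filament needs equal parts of a type I and a type II keratin, which first join as a pair, and a keratin without a partner is generally degraded. KRT8 and KRT18 form the basic pair of single-layered epithelia and are among the first keratins of the embryo, made in the trophectoderm and in extraembryonic endoderm. KRT19, a short type I keratin that lacks most of the tail, KRT7 and KRT20 are added in particular epithelia, and KRT80 is found where epithelial cells differentiate.

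In mouse build GRCm38 the type II genes lie on chromosome 15 and, of the type I genes, Krt18 lies there too. Krt8 (101996698–102004482, minus strand) and Krt18 (102028180–102032027, plus strand) point away from each other, with 23.7 kb between their starts. Krt7 (101411043–101430313) and Krt80 (101347444–101370162) lie in the same cluster, while Krt19 (100140810–100148665) and Krt20 (99428403–99438150) lie in the type I cluster on chromosome 11. RefSeq promoter windows on GRCm38.p6, from 250 bases before to 50 after the start, were found for Krt8, Krt18, Krt7 and Krt20, which is 4 of the 6. The stretches of 3 of them upstream of any annotated exon are shown, so that the letters behind the motif matches there can be read. Of the 250 bases before the RefSeq start, 140 in the Krt8 window and 36 in the Krt18 window are annotated exon and are not shown. The Krt7 window is not shown. It begins at 101412153, past the annotated gene start at 101411043, and annotated exon sequence follows its first 39 bases. Capitals mark matches to the motifs searched, and each runs 5′ to 3′ on the gene's own strand.
Krt8, chr15:102004483-102004592, minus strand: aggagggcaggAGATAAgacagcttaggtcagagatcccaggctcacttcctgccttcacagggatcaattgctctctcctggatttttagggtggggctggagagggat
Krt18, chr15:102027966-102028179, plus strand: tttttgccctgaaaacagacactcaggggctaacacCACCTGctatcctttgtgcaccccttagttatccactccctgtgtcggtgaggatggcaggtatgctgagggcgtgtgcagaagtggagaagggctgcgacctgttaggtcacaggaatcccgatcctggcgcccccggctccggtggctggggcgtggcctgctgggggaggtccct
Krt20, chr11:99438154-99438403, minus strand: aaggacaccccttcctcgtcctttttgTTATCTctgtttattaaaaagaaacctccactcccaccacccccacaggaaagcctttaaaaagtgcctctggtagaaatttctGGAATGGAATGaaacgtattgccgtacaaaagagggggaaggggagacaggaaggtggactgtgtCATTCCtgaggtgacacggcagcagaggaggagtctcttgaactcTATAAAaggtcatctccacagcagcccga

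Motifs were searched on both strands of the whole 300-base windows. The AP-1 motif TGANTCA, the Ets motif CCGGAAGT and the SRF motif had no match in the 4 windows; 7.81%, 3.89% and 0.0639% of all 32851 windows hold one. Positions are counted from the RefSeq start, which for Krt8 and Krt18 lies past the annotated gene start given above. The GATA motif AGATAA, present in 11.2% of all windows, was found 239 bases before the RefSeq start of Krt8 and 223 before that of Krt20. The E-box CACCTG, present in 20.2% of windows, was found in those of Krt8, Krt18 and Krt7. The Krt8 match, 111 bases before the RefSeq start, lies past the annotated gene start. The TEAD motif GGAATG, present in 14.7%, was found 3 times in the Krt20 window and not in the other 3, and the matches at 139 and 134 bases before the start overlap. TATAAA (13.6% of windows) was found right at the RefSeq start of Krt8, which is past the annotated gene start. It was also found 29 bases before the start of Krt20, and the Krt7 window holds GGGCGG (35.7% of windows) 4 times. These matches describe the letters and are not shown to be sites.

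The libraries held 23636074 to 32809875 counts. Expression is given as CPM, for which each count was divided by its library total times a TMM scaling factor, and a gene was called at an edgeR quasi-likelihood adjusted p under 0.05. Replicates were close (common biological coefficient of variation 2.74%), so small changes were called as well. Lamp2 lay between 56.9 and 60.0 CPM in VT, between 403 and 407 with LAMP2A overexpression, and between 95.3 and 99.3 once DM-αKG was added, although counts per gene do not separate its splice forms. The ES cell genes Pou5f1, Sox2 and Nanog were counted in all libraries, at 1385 ± 89.0, 431 ± 12.6 and 999.6 ± 23.4 CPM in VT (SD, n = 3) and 323 ± 4.64, 231 ± 2.02 and 269.5 ± 2.78 in LAMP2A.

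With LAMP2A overexpression 5 of the 6 simple epithelial keratins rose together, and Krt8 and Krt18 reached levels among the highest in the library. In VT, Krt8 was at 37.0 CPM and the others were at 8.09 CPM or less. Of the 6 genes, 5 had enough counts to test, and these 5 were called higher in LAMP2A than in VT, each by more than 2-fold; over all 14513 genes tested, 43.0% were called higher, and 19.8% were called and at least 2-fold higher. The median log2 fold change of the 5 was 5.83, against 0.0081 over all genes. Krt7 and Krt20 passed the filter on low counts only through the LAMP2A libraries, so for these a difference was bound to appear. In bulk RNA, more cells that make a keratin and more keratin RNA in each cell cannot be told apart.

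Krt8, the type II partner in the basic pair, was at 35.4, 39.4 and 36.1 CPM in the VT libraries, at 613.9, 625.9 and 617.6 in those of LAMP2A, and at 44.9, 50.2 and 49.7 with DM-αKG. All LAMP2A libraries lay far above the rest, and the groups did not overlap. Mean levels were 37.0 ± 2.12, 619 ± 6.17 and 48.2 ± 2.93 CPM (SD, n = 3). Krt8 was 16.8-fold higher in LAMP2A than in VT (log2 fold change 4.06, SE 0.039; edgeR adjusted p = 1.29e-40), and its rank among the genes of the table went from 5809 in VT to 170 in LAMP2A and 4901 with DM-αKG. GENCODE places an intergenic RNA gene, Gm36026, over Krt8; it is not a row of the count table, and without the strand setting of the counting its reads cannot be told apart from those of Krt8.

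Krt18, the type I partner, was at 7.73, 8.28 and 8.25 CPM in VT, at 462.2, 459.7 and 462.4 with LAMP2A, and at 12.5, 12.2 and 11.4 with DM-αKG. It started lower than Krt8 and rose further: 57.0-fold (log2 fold change 5.83, SE 0.043; edgeR adjusted p = 4.65e-44), from 8.09 ± 0.309 to 461 ± 1.51 CPM (SD, n = 3). Its rank went from 9595 to 282 and then to 8907.

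Krt19, which can pair with KRT8 in place of KRT18, was at 2.30, 2.07 and 2.01 CPM in VT, at 69.4, 72.6 and 72.6 with LAMP2A, and at 19.98, 18.4 and 17.6 with DM-αKG. Here the 3 groups were set apart in 3 steps, with the treated libraries well above VT. The rise with LAMP2A was 33.6-fold (log2 fold change 5.07, SE 0.072; edgeR adjusted p = 7.86e-36), from 2.13 ± 0.156 to 71.5 ± 1.90 CPM, and the mean with DM-αKG was 18.7 ± 1.20 CPM (SD, n = 3).

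Krt7, a type II keratin of ducts and of trophoblast, had 3, 7 and 6 counts in VT, 474, 450 and 340 with LAMP2A, and 25, 12 and 10 with DM-αKG, or 0.123, 0.259 and 0.223 CPM, 14.4, 14.0 and 12.7 CPM, and 1.05, 0.462 and 0.333 CPM. The LAMP2A libraries stood apart from 2 groups of few counts. The CPM ratio of LAMP2A to VT was 67.9, with a 95% counting interval (exact binomial) of 41.3 to 118; such intervals cover counting error only (log2 fold change 6.04; edgeR adjusted p = 1.93e-24). An antisense gene, Gm671, overlaps Krt7 and is likewise no row of the table.

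Krt20, a type I keratin of gut and urothelial lining, had 3, 1 and 1 counts in VT, 345, 300 and 234 with LAMP2A, and 12, 11 and 3 with DM-αKG. In CPM these were 0.123, 0.0370 and 0.0372, then 10.5, 9.32 and 8.74, then 0.505, 0.424 and 0.0998. It was barely counted outside LAMP2A, and the VT and DM-αKG libraries overlapped. The ratio of LAMP2A to VT was 144 with a 95% counting interval of 63.9 to 462 (log2 fold change 7.13; edgeR adjusted p = 3.31e-23), and the log2 fold change was 7.85 without VT replicate 1. Krt80 had 1 count in each group, in VT replicate 1, LAMP2A replicate 3 and LAMP2A+DM-αKG replicate 1, and was not tested.

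**Figure D1:**
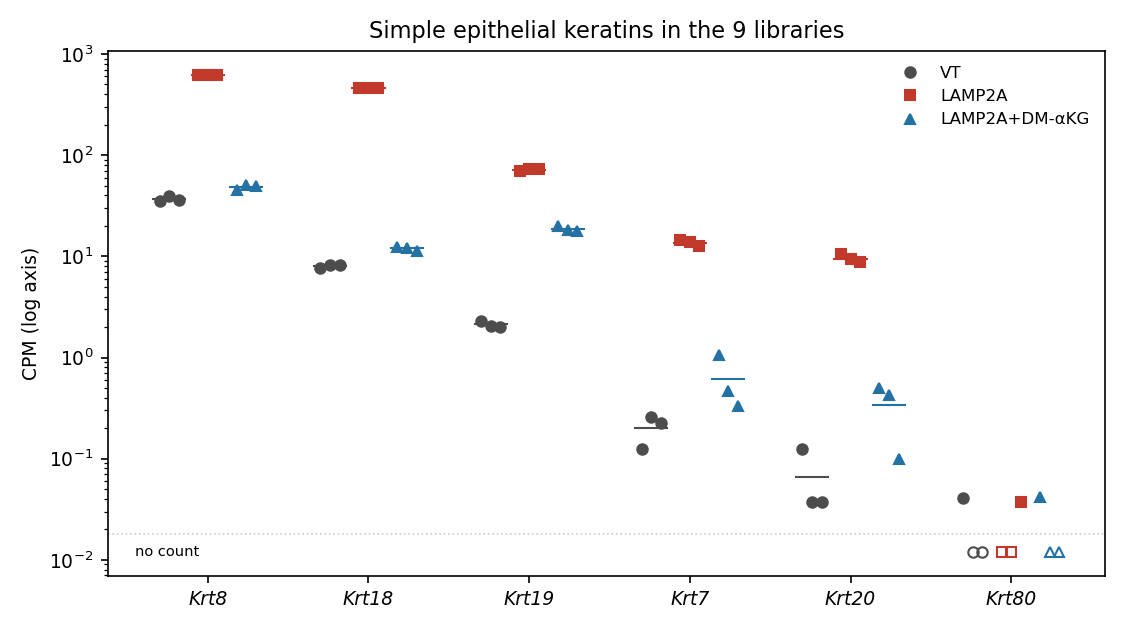
CPM (log axis) of the 6 simple epithelial keratin genes in each of the 9 libraries, with short lines for group means (none drawn for Krt80); open symbols at the bottom mark libraries without a count. For Krt8, Krt18, Krt19, Krt7 and Krt20 the 3 LAMP2A libraries (red squares) lie above all 6 others, and for Krt19 the DM-αKG libraries (blue triangles, 17.6 to 19.98 CPM) stand clear of VT (2.01 to 2.30 CPM).

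DM-αKG given to LAMP2A cells went with lower levels of the same 5 genes, all called lower than in LAMP2A and each by more than 2-fold; 42.1% of all genes tested were called lower, and 17.6% were called and at least 2-fold lower. Their median log2 fold change was -4.53, against -0.0012 over all genes. This comparison and the one above share the LAMP2A libraries, so their values are given side by side and not as 2 independent results. Lamp2 itself was at 404 CPM in LAMP2A and at 97.2 CPM with DM-αKG, and its part in the keratin values was not tested. Krt18 was 38.4-fold lower (log2 fold change -5.27, SE 0.040; edgeR adjusted p = 1.59e-43), after a rise of 57.0-fold. Krt8 was 12.8-fold lower (log2 fold change -3.68, SE 0.038; edgeR adjusted p = 8.51e-40), after 16.8-fold. Krt7 was 22.3-fold lower (log2 fold change -4.53; edgeR adjusted p = 1.54e-23) and Krt20 27.8-fold lower (log2 fold change -4.86; edgeR adjusted p = 3.04e-22), and for these 2, which passed the filter only through LAMP2A, a difference was again bound to appear. Krt19 was 3.84-fold lower (log2 fold change -1.94, SE 0.047; edgeR adjusted p = 9.24e-29), after a rise of 33.6-fold.

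Levels with DM-αKG stayed above those of VT. All 5 tested genes were called higher in LAMP2A+DM-αKG than in VT, where 29.3% of all genes were called higher, and Krt19, Krt7 and Krt20 were at least 2-fold higher, where 3.93% of all genes were. Krt8 was 1.31-fold higher (log2 fold change 0.39, SE 0.045; edgeR adjusted p = 5.13e-09) and Krt18 1.49-fold higher (log2 fold change 0.57, SE 0.067; edgeR adjusted p = 6.97e-09). Krt19 was 8.77-fold higher (log2 fold change 3.13, SE 0.093; edgeR adjusted p = 1.41e-24), and only 30 of the 14513 genes had a higher log2 fold change in this comparison. Krt7 rested on 47 counts against 16, a ratio of 3.05 (counting interval 1.60 to 5.44), with a log2 fold change of 1.51 and an edgeR adjusted p = 0.00385. Without LAMP2A+DM-αKG replicate 1, which holds 25 of those 47 counts, its log2 fold change was 0.93 and its call was lost (edgeR adjusted p = 0.0876; 0.000369 to 0.0876 over its alternatives). Krt20 rested on 26 counts against 5, a ratio of 5.20 (counting interval 1.93 to 17.0; log2 fold change 2.27; edgeR adjusted p = 0.00364, 0.000258 to 0.0323 over its alternatives), and was 2.99 on the log2 scale without VT replicate 1. Expressed as the part of the LAMP2A rise in mean CPM that was left with DM-αKG, the values were 0.867% for Krt18, 1.94% for Krt8, 2.93% for Krt20, 3.07% for Krt7 and 23.8% for Krt19. Without LAMP2A+DM-αKG replicate 1 the value for Krt7 was 1.45%, under the 2.23% of Krt8, and the value for Krt20 was also under that of Krt8. The places of Krt7 and Krt20 above Krt8 thus rest on that library. Leaving out single libraries was chosen here after the values were seen.

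The authors' deposited table gives log2 fold changes for LAMP2A against VT of 4.07 for Krt8, 5.84 for Krt18, 5.08 for Krt19, 6.07 for Krt7 and 7.22 for Krt20. For LAMP2A+DM-αKG against LAMP2A the authors' deposited table gives -3.68, -5.27, -1.94, -4.505 and -4.86 in the same order. It does not list Krt80.

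Divided by exon length, the levels of the different keratins can be compared. In VT the order was Krt8 at 18.9 ± 1.08 CPM per kb, Krt18 at 5.63 ± 0.215 and Krt19 at 1.15 ± 0.0840, followed by Krt20 at 0.0342 ± 0.0259 and Krt7 at 0.0286 ± 0.00995, which did not differ beyond their spread (SD, n = 3). In LAMP2A, Krt18 at 321 ± 1.05 CPM per kb and Krt8 at 316 ± 3.15 were nearly level, above Krt19 at 38.6 ± 1.02, Krt20 at 4.94 ± 0.463 and Krt7 at 1.94 ± 0.126. With DM-αKG, Krt8 led at 24.6 ± 1.497 CPM per kb and Krt19 at 10.1 ± 0.648 came before Krt18 at 8.37 ± 0.387; the lowest Krt19 library (9.502) was above the highest Krt18 library (8.69). Krt20 at 0.178 ± 0.111 and Krt7 at 0.0873 ± 0.0544 overlapped. Lengths are those of all annotated exons joined, 1958 bases for Krt8, 1437 for Krt18, 1855 for Krt19, 1927 for Krt20 and 7049 for Krt7. Krt7 falls to 4094 bases and Krt19 to 1576 if the longest transcript is used, which leaves the order unchanged in LAMP2A. In VT, Krt7 at 0.0493 CPM per kb then came before Krt20 at 0.0342, so their order rests on the length used.

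The make-up of keratin mRNA differed between groups as well as its amount. In VT, Krt8 made up 73.4 ± 0.851% of the summed CPM per kb of the 6 genes, Krt18 21.9 ± 0.699% and Krt19 4.47 ± 0.474%. In LAMP2A these shares were 46.3 ± 0.280%, 47.0 ± 0.330% and 5.65 ± 0.131%, and with DM-αKG 56.9 ± 2.92%, 19.3 ± 0.918% and 23.2 ± 1.68% (SD, n = 3). The type I genes together made up 26.5 ± 0.865% in VT, 53.4 ± 0.281% in LAMP2A and 42.9 ± 2.79% with DM-αKG. Among these 6 genes, type I and type II mRNAs were thus nearer to equal in LAMP2A than in VT. The sums leave out the other keratins, among them the type I genes Krt42 and Krt17, with exon lengths of 1764 and 1551 bases. These were at 32.7 and 11.6 CPM in VT and at 2.73 and 4.17 CPM in LAMP2A. Counted in, they put type I above type II in VT, so the rise of the type I share holds for the 6 genes only.

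**Figure D2:**
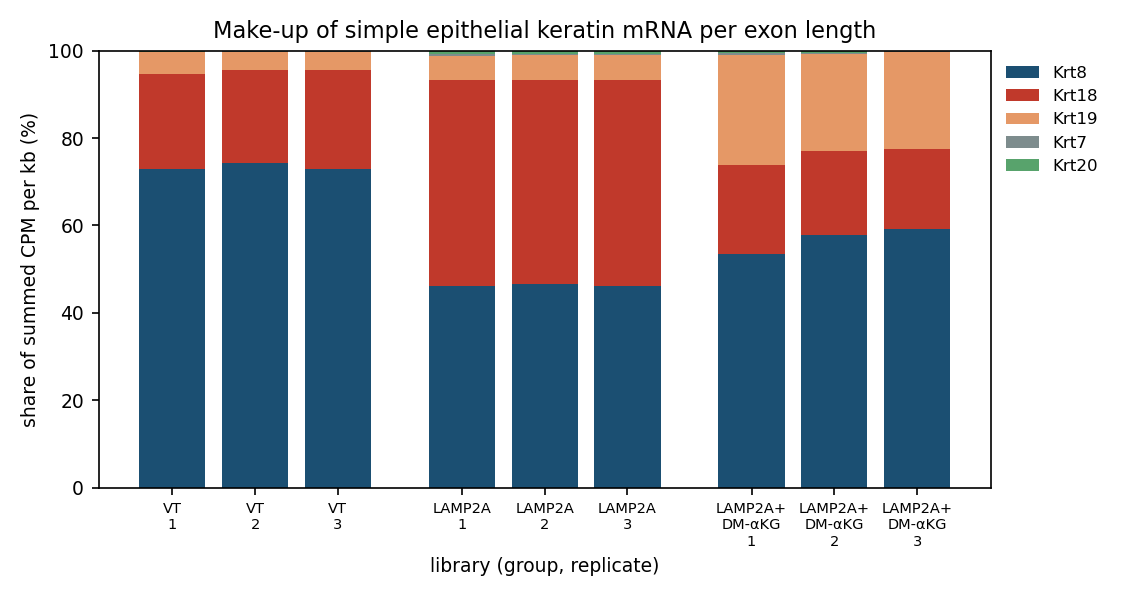
Share of each keratin gene in the summed CPM per kb of exon, in percent, as stacked bars for each of the 9 libraries; Krt80 is too small to draw. Krt8 and Krt18 take near-equal shares in LAMP2A (46.3% and 47.0% on average), and the Krt19 share is widest with DM-αKG (23.2%).

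The ratio of Krt8 to Krt18 counts within a library needs no scaling between libraries. It was 4.57, 4.75 and 4.38 in VT, 1.33, 1.36 and 1.34 in LAMP2A, and 3.59, 4.13 and 4.35 with DM-αKG. Per exon length these are 3.36, 3.49 and 3.21, then 0.975, 0.999 and 0.980, then 2.64, 3.03 and 3.19. The LAMP2A libraries thus sat near a ratio of 1 between these 2 mRNAs, which leaves out the other keratins. Proteins were not measured. The log2 ratio was lower in LAMP2A than in VT (difference -1.76, SE 0.036) and higher with DM-αKG than in LAMP2A (1.58, SE 0.083). With DM-αKG it was slightly below VT (-0.19, SE 0.089), with the 2 groups just apart, and the difference was -0.11 without LAMP2A+DM-αKG replicate 1. The Krt19 to Krt8 ratio per exon length, chosen after the values were seen, was 0.0687, 0.0555 and 0.0586 in VT, 0.119, 0.123 and 0.124 in LAMP2A, and 0.470, 0.386 and 0.375 with DM-αKG. Its log2 differences were 0.99 for LAMP2A against VT (SE 0.094), 1.74 for DM-αKG against LAMP2A (SE 0.104) and 2.74 for DM-αKG against VT (SE 0.138). Each of these 6 differences separated its groups fully and gave p = 0.1 in a two-sided exact permutation test, the smallest that 3 libraries against 3 allow (Benjamini-Hochberg adjusted 0.1 over the 6), so none could reach the threshold.

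**Figure D3:**
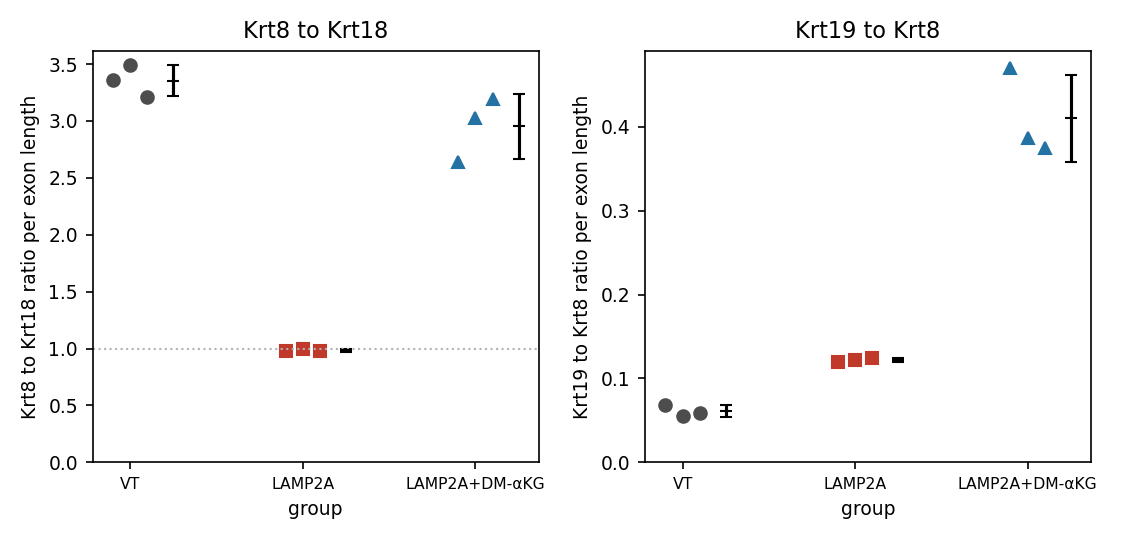
Krt8 to Krt18 and Krt19 to Krt8 ratios per exon length in each library (symbols) with mean and SD of the 3 libraries beside them; the dotted line marks a ratio of 1. Krt8 to Krt18 lies at 0.975 to 0.999 in LAMP2A and at 2.64 or more elsewhere, and Krt19 to Krt8 is 0.375 to 0.470 with DM-αKG and at most 0.124 elsewhere.

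The table holds 46 other keratin genes. Of these, 20 had no count in any library, 20 had counts too few to test, and 6 were tested. Against VT, LAMP2A had 5 of these 6 lower and 1 higher (median log2 fold change -1.10), where 42.1% of all genes were called lower and 43.0% higher. Krt42, a type I keratin gene, was at 32.7 CPM in VT and fell to 2.73 in LAMP2A (log2 fold change -3.58), with 17.3 CPM under DM-αKG. Krt17, known from stressed skin and appendages, was at 11.6 CPM and fell to 4.17 (log2 fold change -1.48), with 9.94 CPM under DM-αKG. Krt15, a basal-layer keratin gene and the higher one, had 2 counts in VT, 226 in LAMP2A and 6 with DM-αKG; it passed the filter only through the LAMP2A libraries, so its calls were bound to appear. Between DM-αKG and LAMP2A, 4 of the 6 were called higher and Krt15 lower (41.1% and 42.1% of all genes); without the filter on low counts 5 other keratins were higher and 4 lower. Against VT, where 29.3% of all genes were called in each direction, none was called higher and Krt42 and Krt17 were lower with DM-αKG. The stratified-epithelium pair stayed near the floor: Krt5 had 3, 4 and 2 counts and Krt14 7, 21 and 0 in the 3 groups. Summed, the 6 simple epithelial genes went from 47.5 ± 2.27 to 1175 ± 5.71 and 79.9 ± 1.50 CPM, while the 46 others went from 49.9 ± 2.71 to 13.3 ± 0.663 and 32.1 ± 1.38 CPM (SD, n = 3). The simple epithelial genes thus held 48.7% of keratin CPM in VT, 98.9% in LAMP2A and 71.4% with DM-αKG.

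**Figure D4:**
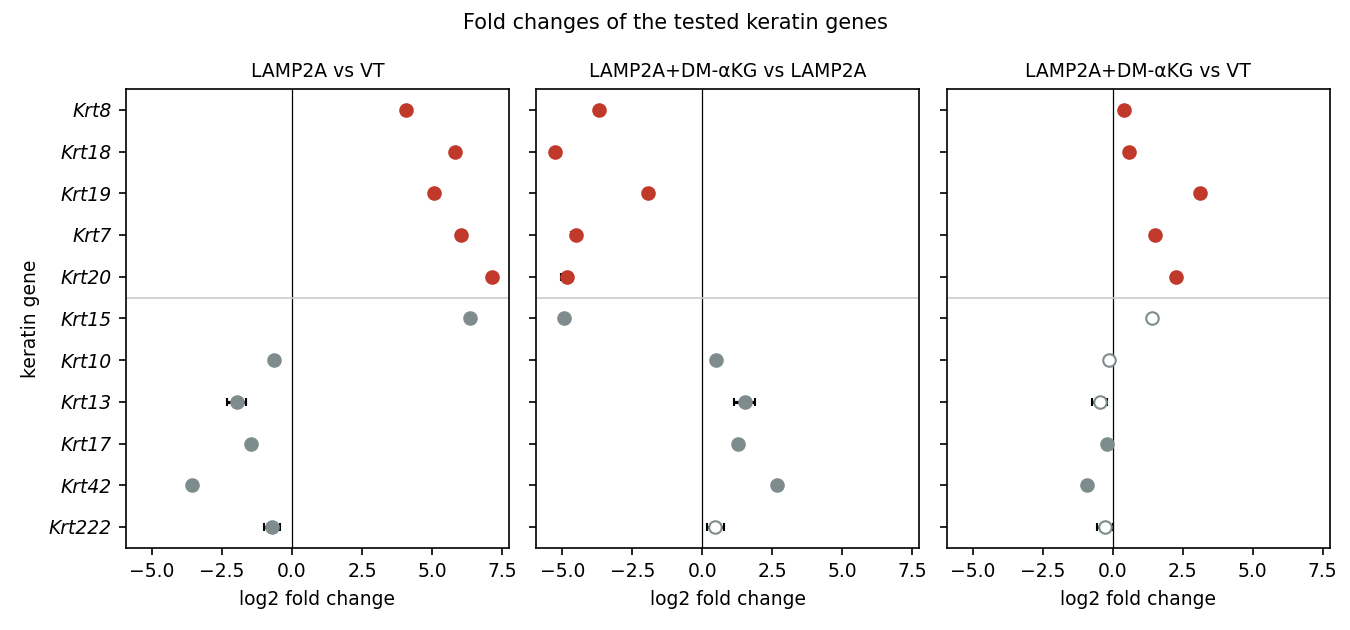
Log2 fold changes of the 11 tested keratin genes in the 3 comparisons, the simple epithelial genes in red above the grey line and other keratins below; bars are SE, left out where a group has under 20 counts, and open circles are not called. Krt19 has the smallest fall with DM-αKG among the red genes (-1.94) and the largest remaining difference from VT (3.13).

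In the neighbourhoods of the genes, looked at after the values were seen, Krt78, Krt79 and Krt4 on the far side of Krt8 were at 0.163 CPM or less in each group and were not tested. Beyond Krt18, the translation factor gene Eif4b changed little (log2 fold changes -0.15 and 0.29 for LAMP2A against VT and DM-αKG against LAMP2A), and the focal adhesion gene Tns2 rose and fell (2.07 and -1.501). Krt15 lies 4.88 kb from Krt19 and had log2 fold changes of 6.36 and -4.95. Krt13, 19.2 kb from Krt19, went the other way (-1.98 and 1.51), as did Krt10, 39.0 kb from Krt20 (-0.63 and 0.50). Krt81 and Krt86, next to Krt7, had no count.

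By the shape of the 9 log2 CPM values around their mean, 10703 genes averaging 5 CPM or more were compared with each of the 3 well-counted keratins. The measure is the root mean square difference in log2 units. The nearest genes to Krt8 were Man1a, a Golgi mannosidase, at 0.0622, Bmp1, a procollagen protease, at 0.0979 and Sox4, a transcription factor gene, at 0.120. Those nearest Krt18 were Fzd2, a WNT receptor, at 0.119, Pkdcc, a secreted kinase, at 0.150 and App, the amyloid precursor, at 0.162. Krt19 had no equally near gene: Dtx4 was at 0.552, Dlk1, a NOTCH ligand relative, at 0.555 and Gata6, an endoderm factor gene, at 0.558. Krt18 itself was 0.794 from Krt8, and Krt19 was 1.13 from Krt8. These points share libraries and scaling and are a description.

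Genes of the structures that keratins attach to did not move as one. Of 18 tested keratin linker and desmosome genes, 10 were higher and 4 lower in LAMP2A than in VT (median log2 fold change 0.11), and 5 were higher and 13 lower with DM-αKG than in LAMP2A (median -0.29), beside 43.0% higher and 42.1% lower, then 41.1% higher and 42.1% lower, over all genes. Dsc2, a desmosomal cadherin, rose from 3.22 to 69.4 CPM and was at 10.5 with DM-αKG (log2 fold changes 4.43 and -2.71). Dsp, desmoplakin, which ties keratin to the desmosome, went from 56.4 to 221 and 115 CPM, and the plaque gene Pkp2 from 20.01 to 82.3 and 26.3 CPM. Of 22 epithelial adhesion and junction genes, 13 were higher and 6 lower in LAMP2A (median 0.37), and 5 higher and 15 lower with DM-αKG (median -0.50). The tight junction genes F11r and Tjp1 rose (log2 fold changes 1.74 and 1.05), and Spint1, a protease inhibitor of epithelial surfaces, fell (-1.20). Dsc3 of the linker list and Cldn1 of the junction list passed the filter on low counts only through LAMP2A. For these a difference was bound to appear. Of 14 other intermediate filament genes, 7 were higher and 5 lower in LAMP2A (median 0.18), and 5 higher and 8 lower with DM-αKG (median -0.17). Vim, vimentin of mesenchymal cells, went from 361 to 1015 and 435 CPM, Nes, nestin of progenitors, had log2 fold changes of 2.48 and -2.40, and Prph, peripherin, 2.10 and -0.70. Against VT, DM-αKG libraries had the lamin genes Lmna and Lmnb1 lower (-0.72 and -0.16) and 4 other filament genes higher. In that comparison 7 linker and desmosome genes were higher and 7 lower, and 4 junction genes were higher and 10 lower, beside 29.3% of all genes in each direction.

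Of 12 tested genes of a list of epithelial regulators, 4 were higher and 6 lower in LAMP2A (median log2 fold change -0.11), beside 43.0% and 42.1% of all genes. With DM-αKG, 7 were higher and 4 lower than in LAMP2A (median 0.33), beside 41.1% and 42.1% of all genes. The list also holds Cdh3, Rab25 and Prom2, which are not regulators of transcription or splicing. Klf4 and Klf5, factors of both ES cells and epithelia, fell (-2.54 and -1.90), and Cdh3, P-cadherin, rose (1.52). Elf3 and Klf4 were the 2 called higher with DM-αKG than in VT (0.82 and 0.07), and 5 were called lower (29.3% of all genes in each direction); only 1 was called higher under 5 of the alternatives. Of 18 AP-1 and Ets factor genes, families with known sites in the KRT18 gene, 11 were higher and 7 lower in LAMP2A (median 0.85), and 5 higher and 10 lower with DM-αKG (median -0.92), beside the same all-gene shares. Jun went from 5.38 to 128 and 11.5 CPM, Fosl2 had log2 fold changes of 4.54 and -3.04, and Etv4 of -3.70 and 3.15. With DM-αKG, 7 were higher and 6 lower than in VT. Fli1 of this list passed the filter on low counts only through LAMP2A, so for it a difference was bound to appear.

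Markers of cell types that make or surround simple epithelial keratins moved in the same libraries, and their part in the keratin values was not tested. Of 13 tested trophoblast markers, 12 were higher and Tead4 was lower in LAMP2A (median log2 fold change 2.43), where 43.0% of all genes were called higher and 42.1% lower. Cdx2 and Hand1 of these passed the filter on low counts only through LAMP2A, as did 2 endoderm, 5 mesothelium and 5 fibroblast and feeder markers, so for these a difference was bound to appear. Their summed level over 18 genes was 104 to 109 CPM in VT, 215 to 227 in LAMP2A and 139 to 142 with DM-αKG. The factor genes Hand1, Gata3 and Gata2 rose (7.64, 7.22 and 2.74), while the placental genes Tpbpa, Prl3d1 and Prl3b1 had no count in any library and Elf5 none in VT or with DM-αKG. With DM-αKG, 9 of the 13 were lower than in LAMP2A, and Ascl2, Eomes and Tead4 higher (42.1% and 41.1% of all genes). Against VT, where 29.3% of all genes were called in each direction, 7 were higher with DM-αKG and Cdx2 and Gata2 lower. Of 20 tested endoderm markers, 19 were higher and Sox7 lower in LAMP2A (median 2.83), and with DM-αKG 19 were lower than in LAMP2A and Sox7 higher. The endoderm sums over 21 genes were 932 to 984, 4256 to 4303 and 1387 to 1445 CPM, and Afp had no count in VT. The basement membrane genes Lamb1 and Col4a1 and the receptor gene Cubn led by p (3.10, 2.61 and 4.61); Amn and Cubn were lower with DM-αKG than in VT, where 12 were higher.

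Of 9 mesothelium markers (Muc16 was not matched), 8 were higher and Msln, mesothelin, was lower in LAMP2A (median log2 fold change 3.46; 43.0% of all genes were called higher and 42.1% lower), with sums of 47.5 to 52.8, 815 to 836 and 76.0 to 80.7 CPM; 8 were lower with DM-αKG than in LAMP2A and Msln higher (42.1% and 41.1% of all genes). Most of these sums was Podxl, at 30.5 CPM in VT, 731 in LAMP2A and 57.8 with DM-αKG. Podxl and Lrrn4 rose (4.58 and 3.46), Msln fell (-2.35), and Tcf21 had no count in VT. Of 11 tested fibroblast and feeder markers, 10 were higher and Thy1 lower in LAMP2A (median 5.63), and all 11 were lower with DM-αKG than in LAMP2A. Col5a1, Col1a1 and Loxl1, genes of collagen and its crosslinking, had log2 fold changes of 2.45, 5.92 and 3.02. The sums over 14 genes were 39.2 to 41.6, 303 to 313 and 46.9 to 52.5 CPM; Lum and Fap had no count in VT, and Fap none in LAMP2A. Against VT, 1 mesothelium marker was higher with DM-αKG and none lower, and 1 fibroblast and feeder marker was higher and 1 lower. The 11 ES cell markers were all lower in LAMP2A than in VT (median -1.94) and all higher with DM-αKG than in LAMP2A (median 1.60), led by Tdgf1, Esrrb and Zfp42 (-3.09, -2.56 and -2.09); their sums were 8783 to 9293, 2169 to 2179 and 7212 to 7269 CPM. With DM-αKG, 9 of them were called lower than in VT and Fgf4 higher, beside 29.3% of all genes in each direction.

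**Figure D5:**
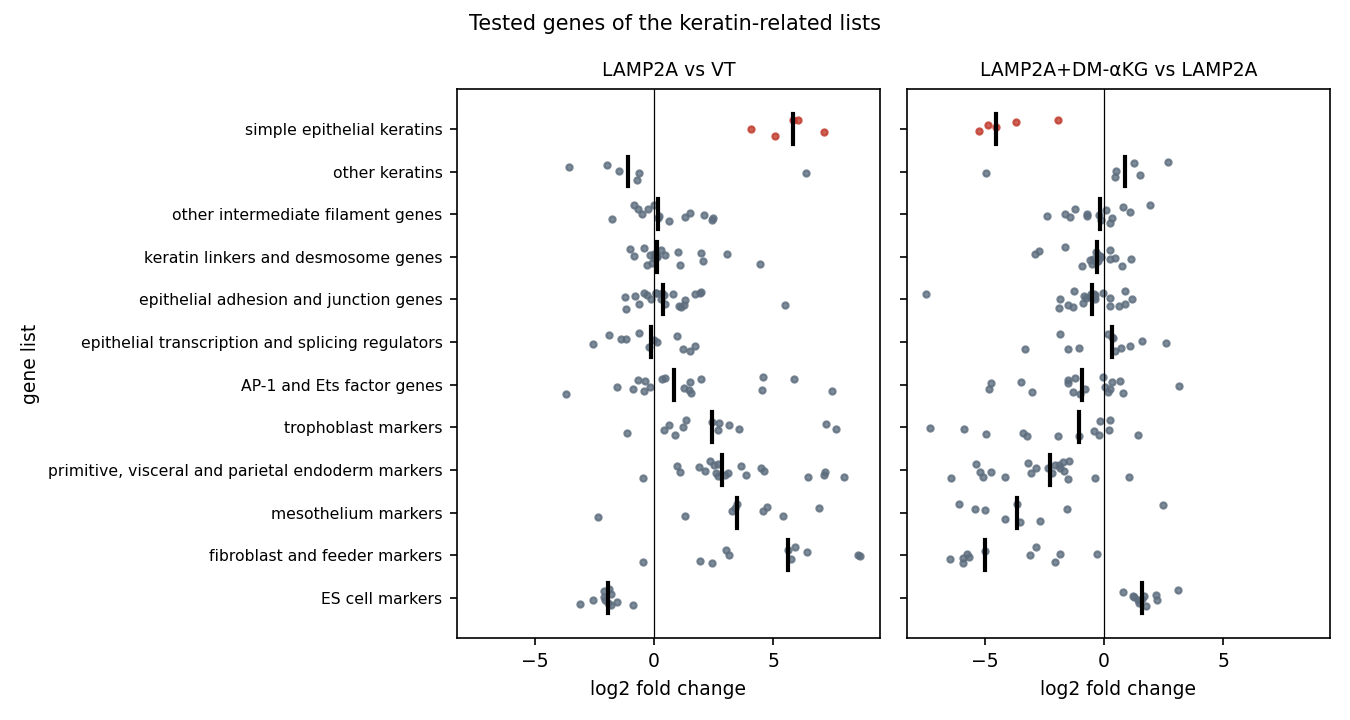
Log2 fold changes of the tested genes of each list for LAMP2A against VT (left) and LAMP2A+DM-αKG against LAMP2A (right); points are genes, spread vertically for visibility, and black bars are medians. The simple epithelial keratins (red) have medians of 5.83 and -4.53; the junction list has medians of 0.37 and -0.50 and the linker list of 0.11 and -0.29, with genes on both sides of 0, and the fibroblast and feeder list has medians of 5.63 and -4.98.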

How the data were processed

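RNA was measured in 9 libraries made with a stranded mRNA kit, per the labels' protocols. The authors deposited raw counts per gene symbol; reads were handled with STAR 2.7.1 and HTSeq 0.11.2 on mm10, per the submitters' processing notes, whereas annotation and strand setting were not given in the sources used here. Their deposited comparison tables (DESeq2, per the submitters' processing notes) hold, per the file headers, a mean signal, log2 fold changes, a test score and p-values; only log2 fold changes were used. Each count column named its sample, and 0 columns were of another series.

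The model of the counts was edgeR 4.0.16 in R 4.3.3 (filterByExpr, TMM, robust quasi-likelihood test, Benjamini-Hochberg over 14513 genes), using 9 libraries, 3 group means and 6 residual degrees of freedom. The script was tested on simulated data. SE was taken as the log2 fold change divided by √F and is left out for genes with few counts. Fold values are ratios of mean CPM. Ratios within libraries used a prior of 0.5 counts, and the likeness measure a prior of 1. Gene positions and lengths came from GENCODE vM21, promoter windows from RefSeq. Between libraries of a group, chi-square per degree of freedom was 1.19 to 5.93, so none were merged. No list was tested as a set; some genes are in more than 1 list. List medians are of fitted values; with a gene without counts in 1 group set to a floor of 3 counts over that group, the medians printed do not change. Members and lists were chosen with earlier results of these data known. Named genes were the 6 keratins, the 3 of each list with the smallest p for LAMP2A against VT, up to 3 called against their list's majority, other keratins of at least 5 CPM, the 3 nearest genes by likeness, Lamp2, Pou5f1, Sox2 and Nanog; Krt5, Krt14 and the neighbouring genes were added after their values were seen. Alternatives were other scaling, no filter, DESeq2 1.42.0, only the 6 libraries compared, a replicate block and leaving out each library.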

Additional observations from a re-analysis of the deposited data

How the results depend on the processing

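Over the alternatives tried, the 5 tested keratins kept their direction in all 3 comparisons. The count called in LAMP2A+DM-αKG against VT was 3 in place of 5 when only the 6 libraries compared were fitted, because Krt7 and Krt20 then fell under the filter and were not tested. Of 178 alternative values of single keratins, 177 kept their call; Krt7 in LAMP2A+DM-αKG against VT lost it without LAMP2A+DM-αKG replicate 1 (log2 fold change 0.93). Of 396 alternative counts of list genes, 10 moved by over 1.5 times; among them the epithelial regulators higher with DM-αKG than in VT were 1 in place of 2, and without a filter on low counts 2 other keratins in place of 1 were higher in LAMP2A than in VT and 4 in place of 1 were lower with DM-αKG than in LAMP2A. Of 45 values of the LAMP2A rise left, each without 1 library, none moved by over the SD of its DM-αKG libraries. For the values without a DM-αKG library this was fixed in advance, since leaving out 1 of 3 libraries cannot shift their mean that far. The places of Krt7 and Krt20 above Krt8 did change without LAMP2A+DM-αKG replicate 1, as given above. Scaling by library total alone left the median of all genes within 0.0197 of 0. DESeq2 size factors, like TMM, centre the genes by design, so a median near 0 under them was fixed in advance. Few counts limit Krt7 and Krt20 outside LAMP2A, and Krt80 everywhere.

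Libraries with the same replicate number did not deviate together throughout: the correlations of their deviations from group means ran from -0.146 to 0.150, so the numbers were not taken as pairs. With the number as a replicate block, 5 keratins were called in each comparison and 12341, 12065 and 8462 genes in all, against 12355, 12081 and 8517. Within numbers, the log2 Krt8 to Krt18 ratio differed by -1.76, 1.58 and -0.19, with an exact sign-flip p = 0.25, the smallest that 3 pairs allow.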
